A study of Sus scrofa with 32 samples.

Results

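Collagens and the proteins that surround them form the connective tissue of muscle, and 40 of these matrix genes were followed in the longissimus dorsi (loin) of pig fetuses. The genes were taken from the deposited expression table by symbol, using the row with the highest mean where a symbol had several. Of the 40 genes listed, 38 had a row among the 30413 loci of the table. COL6A1 was found only through its Ensembl number and is given apart from the counts, and COL4A1 is not analysed here.

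The RNA came from 32 fetuses at gestation day 77. Of these, 16 were crossbred Iberian x Large White and 16 were purebred Iberian, with 8 females and 8 males of each. All fetuses were carried by 7 purebred Iberian sows of the Retinto strain that had been inseminated with mixed Iberian and Large White semen, so that both genotypes shared the same uterine environment, and all sows were feed-restricted for the later part of gestation. The study assigned the genotype from a LEPR variant for which the parents of each breed were homozygous for different alleles. The study also picked its fetuses for high or low body weight, but the labels used here do not give the weight category, so it was not modelled. The sow was read from the leading digits of the fetus name, which no label states in words. Both genotypes were present in 5 of the 7 sows, and fetuses of 1 sow share a litter, so they are not fully independent animals.

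Muscle connective tissue lies in sheaths around the whole muscle, around fascicles and around single fibres. Fibroblasts secrete procollagens, whose propeptides are removed outside the cell before the molecules assemble into fibrils and are crosslinked by lysyl oxidases. Collagen IV and laminins form the basement membrane of each fibre, collagen VI links it to the interstitial matrix, and small proteoglycans sit on the fibrils and govern their width. In the fetal loin this matrix is laid down while secondary fibres form, and adipocytes later develop within it.

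Expression was given as FPKM, a fragment count scaled by transcript length and by library size. Relative sequencing depth, estimated from the lowest values of each library, lay between 0.701 and 1.43, with medians of 1.06 in crossbred and 0.915 in Iberian fetuses, and 14921 to 16877 loci exceeded 0.5 FPKM in a fetus. All 18 muscle fibre markers with a row were detected, and ACTA1, the skeletal muscle actin, had a median of 6692 FPKM among crossbred animals and 5888 FPKM among Iberian ones. Of 18 cartilage and bone markers, 8 had a median under 0.5 FPKM, while SPP1 (mean 68.5 FPKM), COL11A1 (48.4 FPKM) and COL2A1 (36.4 FPKM) were expressed. In bulk tissue, fewer cells of a type and less RNA per cell cannot be told apart. The library kit does not mark the strand, so 2 rows that overlap on opposite strands cannot be fully separated.

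A pair of start regions is shown, because results below turn on the partner genes they serve. COL1A2 encodes the α2 chain of type I collagen and is the partner of COL1A1 in the ratios given below, and the 200 bases upstream of its start are chr9:74174284-74174483 on the plus strand of Sscrofa11.1. COL4A1 and COL4A2 encode the chains of the main basement membrane collagen and are transcribed away from each other from a shared start region, and the locus of the row named COL4A2 spans both genes. The 133 bases between the COL4A1 start and the downstream start of COL4A2 are chr11:76997410-76997542, written on the plus strand. Sequences follow RefSeq on Sscrofa11.1, with capitals marking matches on either strand to CCAAT (the CCAAT box), GGGCGG (the GC box) and TATAAA (the TATA box).
COL1A2 upstream: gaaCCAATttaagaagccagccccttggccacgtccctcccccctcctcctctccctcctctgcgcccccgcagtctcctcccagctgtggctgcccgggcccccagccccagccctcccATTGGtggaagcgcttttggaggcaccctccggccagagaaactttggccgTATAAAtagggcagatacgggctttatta
COL4A1 to COL4A2: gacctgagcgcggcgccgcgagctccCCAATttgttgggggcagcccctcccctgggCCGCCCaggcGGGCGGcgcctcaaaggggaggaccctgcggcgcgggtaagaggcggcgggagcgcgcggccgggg

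The COL1A2 stretch held 2 CCAAT boxes and 1 TATA box and was 62.5% G and C. Among 19559 pig promoters of the same length, 27.7% held a CCAAT box and 7.69% a TATA box, and the median G and C content was 59%. The COL4 stretch held 1 CCAAT box and 2 GC boxes and was 78.9% G and C, whereas 21.5% of promoters of its length held a CCAAT box and 39.1% a GC box. None of the 3 motifs was found in the 200 bases upstream of COL1A1 or COL3A1. These matches describe the letters in each window only.

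A few very abundant transcripts made up most of the matrix signal. Mean FPKM summed over the 38 genes was 17575, and COL3A1, SPARC, COL1A1, COL1A2 and DCN together made up 69.6% of it. Another 17 genes averaged between 100 and 1000 FPKM, and 16 averaged under 100 FPKM. The least abundant was ADAMTS19, at 7.06 FPKM.

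**Figure D1:**
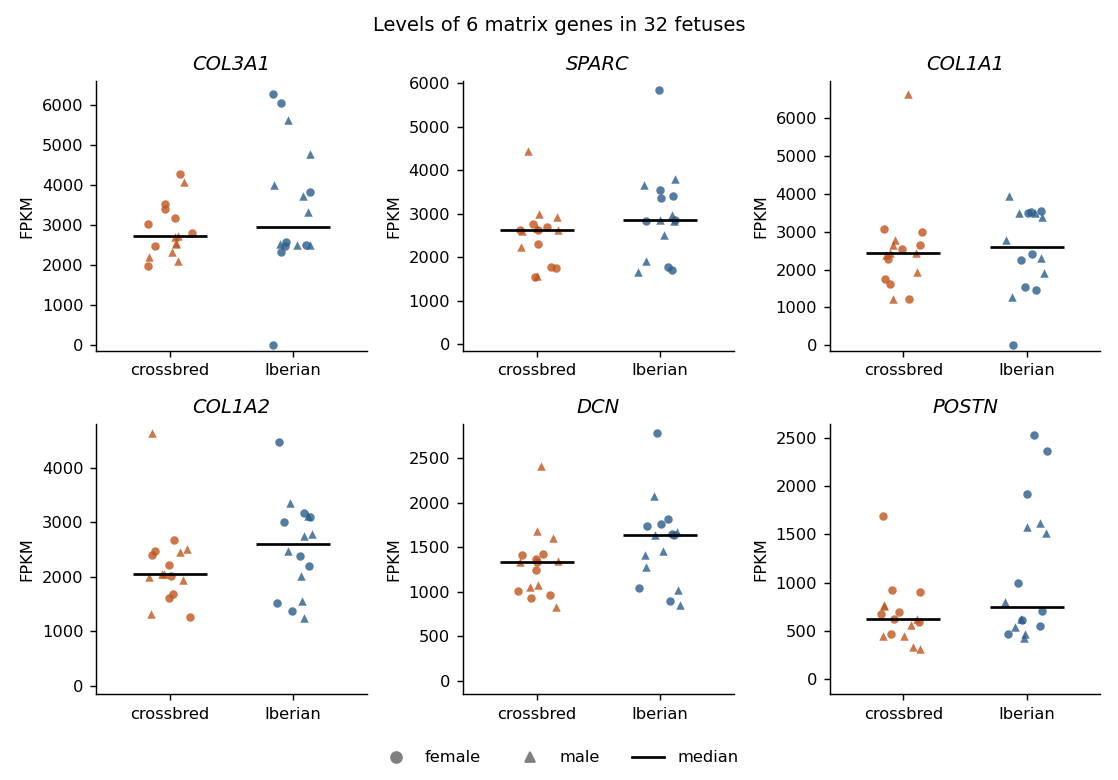
FPKM of the 5 most abundant matrix genes and of POSTN, 1 point per fetus (circles for females, triangles for males), crossbred fetuses left of Iberian fetuses, with a line at the median. The genotypes overlap in each panel, and the Iberian female 1417F3L is listed at 0 for COL3A1 and COL1A1.

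Type I and type III collagen form the bulk of muscle fibrils. COL1A2 had a lowest, median and highest value of 1255, 2052 and 4636 FPKM in crossbred fetuses, against 1246, 2612 and 4487 FPKM in Iberian fetuses. COL1A1, which encodes the α1 chain of the same molecule, had 1209, 2431 and 6658 FPKM in crossbred fetuses, against 0, 2595 and 3958 FPKM in Iberian fetuses. COL3A1, the single chain of type III collagen, had 1956, 2708 and 4263 FPKM in crossbred fetuses, against 0, 2934 and 6278 FPKM in Iberian fetuses. Both values of 0 belong to 1 animal, the Iberian female 1417F3L, in which COL1A2 was the highest of all Iberian fetuses at 4487 FPKM. An exact 0 beside that value can be a failed estimate, and of the 96 loci with a median of at least 1000 FPKM, 14 were listed at 0 in at least 1 fetus. COL1A1 and COL3A1 are therefore given below with and without this fetus.

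SPARC, a collagen-binding matricellular protein, had 1546, 2628 and 4455 FPKM in crossbred fetuses, against 1662, 2854 and 5840 FPKM in Iberian fetuses. DCN, which encodes the fibril-bound proteoglycan decorin, had 832, 1334 and 2415 FPKM in crossbred fetuses, against 845, 1634 and 2783 FPKM in Iberian fetuses. In both genes the ranges of the genotypes overlapped over most of their length.

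Ratios between genes whose products share a molecule or a complex were taken within each fetus. The ratio of COL1A1 to COL1A2 had a median of 1.11 in crossbred fetuses, where it ranged from 0.913 to 1.44. In the 15 Iberian fetuses other than 1417F3L the ratio ranged from 1.00 to 1.28. The ratio of COL6A1 to COL6A2, partner chains of collagen VI, had a median of 1.25 in both genotypes and lay between 1.09 and 1.46 in all 32 fetuses. The ratio of MMP2, a secreted gelatinase, to its inhibitor TIMP2 had a median of 1.12 in crossbred and 1.18 in Iberian fetuses. Other partner chains spread more widely, with COL5A1 to COL5A2 between 0.986 and 1.83 and COL6A3 to COL6A2 between 1.51 and 2.67. COL1A2 itself differed 3.72-fold between its lowest and highest fetus.

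Most pairs of the 38 genes were positively correlated over fetuses. Of their 703 pairs, 567 had a positive Pearson r, the median r was 0.44, and 296 pairs exceeded 0.5. Without 1417F3L, 618 pairs were positive, the median r was 0.47 and 335 pairs exceeded 0.5. Pairs of other loci were not counted, so no share over all loci stands beside these numbers. By Spearman rank the median was 0.46, with 320 pairs over 0.5. These values are a description, since fetuses share litters and libraries differ in depth. The 5 pairs with r under -0.5 all held COL15A1, a collagen of the basement membrane zone, set against LOX (-0.73), ASPN (-0.66), POSTN (-0.65), OGN (-0.59) and COL12A1 (-0.51). OGN and ASPN, neighbouring genes for small proteoglycans, had r = 0.96, but the table gives their rows the same locus coordinates on chromosome 3, so shared reads were not tested. A single animal held many of the extremes, because the crossbred male 1340F5L was the highest of all fetuses in 19 genes and 1417F3L in 11. The same male had the highest marker sums for muscle fibre, tendon, Schwann and erythroid cells and the lowest for proliferation, and their part in these values was not tested.

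The spread over fetuses differed widely between genes. POSTN (periostin) had the largest coefficient of variation at 65.5%, followed by ADAMTS19 at 55.1% and TNMD (tenomodulin, a membrane protein of tendon cells) at 53.4%. The smallest belonged to VCAN at 16.5%, COL18A1 at 16.6% and FBN1 at 22.4%. VCAN, a large proteoglycan of provisional matrix, had 75.1, 92.4 and 118 FPKM in crossbred fetuses, against 61.8, 87.3 and 124 FPKM in Iberian fetuses. COL18A1, the basement membrane collagen that contains endostatin, had 24.8, 35.1 and 48.3 FPKM in crossbred fetuses, against 28.3, 35.6 and 44.0 FPKM in Iberian fetuses. FBN1, the main microfibril protein, had 75.4, 96.0 and 157 FPKM in crossbred fetuses, against 67.8, 96.9 and 137 FPKM in Iberian fetuses. The genotypes overlapped in all 3, although 4 Iberian fetuses lay above the highest crossbred fetus for VCAN and 3 crossbred fetuses below the lowest Iberian fetus for COL18A1. TNMD had 21.3, 79.3 and 134 FPKM in crossbred fetuses, against 15.5, 57.8 and 174 FPKM in Iberian fetuses, and the genotypes again overlapped.

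The comparison of crossbred with Iberian fetuses asks whether the paternal breed altered the fetal matrix. With limma on log2(FPKM + 0.5), which understates the change of low genes, calls needed an adjusted p (Benjamini-Hochberg over 16750 loci) of 0.05 or less together with a fold of 1.3 or more. ADAMTS19 was the 1 gene of 38 called lower in crossbred fetuses, where 0.507% of all loci were called lower. No gene of the 38 was called higher, where 0.848% of all loci were called higher. These shares are 85 loci lower and 142 higher, and median-of-ratios scaling gave 133 lower and 140 higher. At an unadjusted limma p under 0.05 there were 3 genes, all lower in crossbred fetuses (ADAMTS19, LUM and POSTN), which is 7.89% of the 38 against 17.9% of all loci. The log2 fold change was negative for 25 genes and positive for 13, with a median of -0.10 against 0.03 over all loci. Crossbred and Iberian fetuses overlapped for all 38 genes, where 0.0179% of all loci did not overlap.

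**Figure D2:**
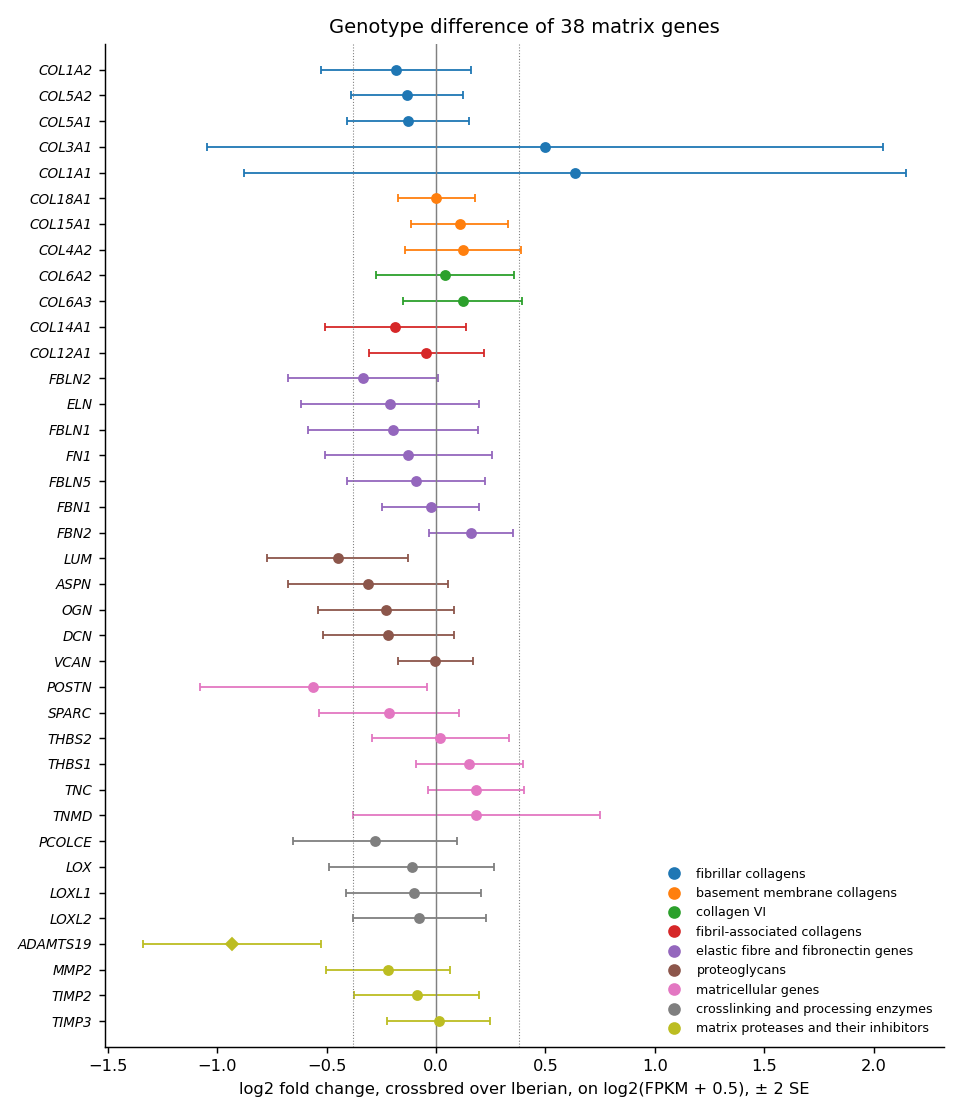
Log2 fold change of crossbred over Iberian fetuses for each of the 38 genes, coloured by role, with bars of 2 standard errors from limma on log2(FPKM + 0.5) and dotted lines at a fold of 1.3. ADAMTS19, the gene called (diamond), lies farthest from 0 at -0.93, and COL1A1 and COL3A1, each listed at 0 in 1 fetus, have the widest bars.

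Some of these genes had narrow intervals. In 10 of the 38 the interval of 2 standard errors around the log2 fold change lay wholly within a fold of 1.3 in either direction. Among them were COL18A1, with a log2 fold change of 0.00 and an interval of -0.17 to 0.18, VCAN (-0.00, -0.17 to 0.17) and FBN1 (-0.02, -0.25 to 0.20). For COL1A2 the log2 fold change was -0.18 with an interval of -0.53 to 0.16, for SPARC -0.21 (-0.53 to 0.11) and for DCN -0.22 (-0.52 to 0.08). A fold of 1.3 lower in crossbred fetuses lies inside the intervals of these abundant genes. The fit behind all these intervals ignores the litter. With the sow as a block the log2 fold change was -0.24 for FBN1, -0.09 for VCAN and -0.08 for COL18A1, and intervals of that fit are not given here.

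ADAMTS19 encodes a secreted metalloprotease of the ADAMTS family. Its lowest, median and highest values were 1.45, 5.24 and 8.12 FPKM in crossbred fetuses, against 4.68, 8.78 and 17.3 FPKM in Iberian fetuses. No crossbred fetus reached the Iberian median, and 9 of 16 Iberian fetuses exceeded the highest crossbred fetus. The mean was 4.73 ± 2.00 FPKM over crossbred fetuses, against 9.39 ± 3.96 FPKM over Iberian fetuses (SD, n = 16 and 16), with a log2 fold change of -0.93 (SE 0.20, limma adjusted p = 0.0155). The call held when any 1 of the 32 fetuses was left out, with log2 fold changes of -0.99 to -0.85.

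The ADAMTS19 call has limits. With the sow as a block the log2 fold change was -0.72 (limma adjusted p = 0.135), and without the 3 fetuses of highest adipocyte gene level (1404F2L, 1410F5L and 1417F3L) it was -0.77 (adjusted p = 0.0949). Within litters, crossbred fetuses averaged lower in 4 of the 5 sows with both genotypes. The differences were 0.04, -1.28, -0.28, -1.11 and -0.998 on the log2 scale for sows 1338, 1340, 1401, 1404 and 1417. The table holds 2 rows of this name over the same locus, chromosome 2, 132143210 to 132413737 in Sscrofa11.1, and the order of the locus numbers places the higher row on the strand opposite to the RefSeq gene (plus strand, 132145266 to 132413116). The lower row, on the annotated strand, averaged 2.88 ± 1.36 FPKM over crossbred fetuses, against 3.87 ± 1.41 FPKM over Iberian fetuses (SD, n = 16 and 16). The log2 fold change of that row was -0.41 (limma adjusted p = 0.203), so the call concerns the higher row only.

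**Figure D3:**
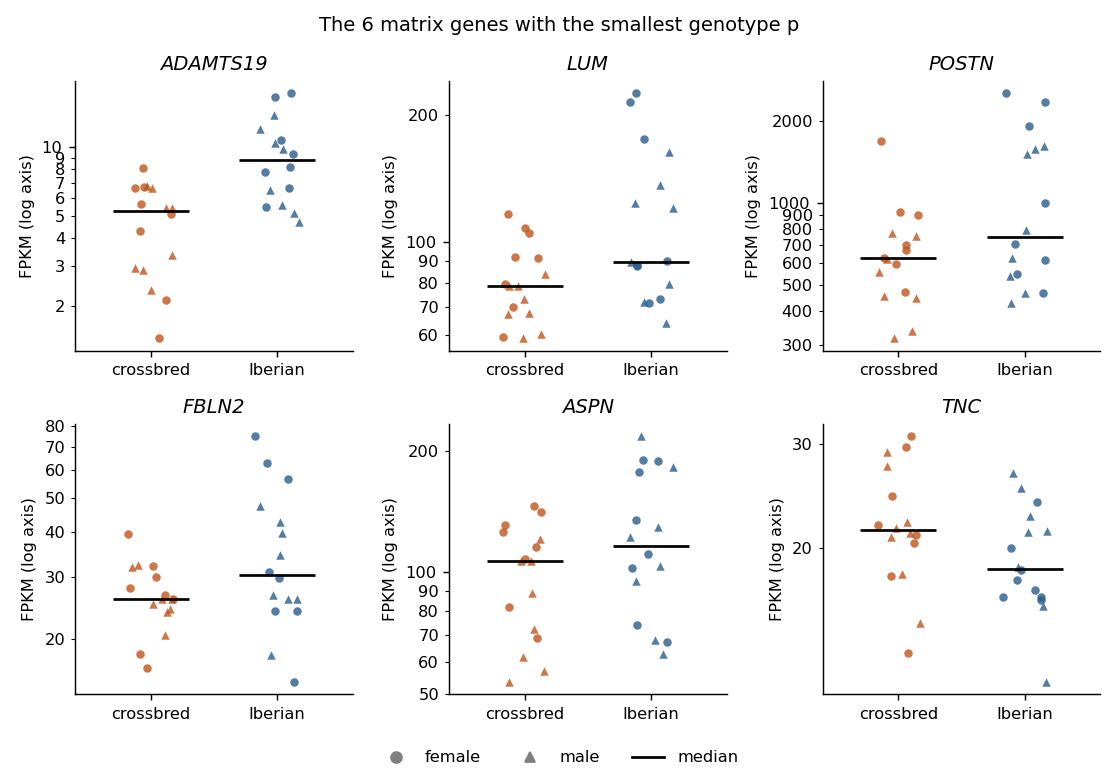
FPKM per fetus on a logarithmic axis for the 6 matrix genes with the smallest limma p for genotype (circles for females, triangles for males), crossbred fetuses left of Iberian fetuses, with a line at the median. The medians of ADAMTS19 are 5.24 in crossbred and 8.78 in Iberian fetuses, and between 3 and 7 Iberian fetuses lie above the highest crossbred fetus for LUM, POSTN, FBLN2 and ASPN.

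The proteoglycans had negative log2 fold changes in all 5 genes, with a median of -0.23, but 0 of the 5 were called and 1 had an unadjusted limma p under 0.05. LUM (lumican, which spaces collagen fibrils) had 59.0, 78.8 and 116 FPKM in crossbred fetuses, against 64.3, 89.9 and 226 FPKM in Iberian fetuses. The medians were close and the gap lay in the upper tail, where 7 Iberian fetuses exceeded every crossbred fetus (log2 fold change -0.45, SE 0.16, limma adjusted p = 0.137). Without 1404F2L, 1410F5L and 1417F3L it was -0.24 (limma adjusted p = 0.617). ASPN (asporin) had 53.6, 107 and 146 FPKM in crossbred fetuses, against 62.7, 116 and 217 FPKM in Iberian fetuses. Here 5 Iberian fetuses lay above the highest crossbred fetus (log2 fold change -0.31, SE 0.18, limma adjusted p = 0.382), and without the same 3 fetuses the value was -0.16. OGN (osteoglycin) had a log2 fold change of -0.23, DCN -0.22 and VCAN -0.00.

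Matricellular genes, whose products modulate cells rather than build fibres, went both ways. TNMD, a membrane protein and so not matricellular, was counted with them and had a log2 fold change of 0.18. The 6 genes had a median log2 fold change of 0.09, 0 were called and 1 had an unadjusted limma p under 0.05. POSTN had 317, 625 and 1691 FPKM in crossbred fetuses, against 429, 751 and 2529 FPKM in Iberian fetuses (log2 fold change -0.56, SE 0.26, limma adjusted p = 0.247). TNC (tenascin C) had 13.3, 21.5 and 30.9 FPKM in crossbred fetuses, against 11.9, 18.5 and 26.8 FPKM in Iberian fetuses (log2 fold change 0.18, SE 0.11, limma adjusted p = 0.392). Without 1404F2L, 1410F5L and 1417F3L the log2 fold change of POSTN was -0.26, and without sow 1340 that of TNC was 0.28. For POSTN 3 Iberian fetuses exceeded the crossbred range, whereas for TNC the highest fetus was crossbred. THBS1 and THBS2, the thrombospondins, had log2 fold changes of 0.15 and 0.02.

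Fibrillar collagens had a median log2 fold change of -0.13, with 0 of 5 called and 0 at an unadjusted limma p under 0.05. COL5A1 and COL5A2, whose type V collagen starts fibril assembly, each had a log2 fold change of -0.13. COL1A1 and COL3A1 had positive fitted values of 0.63 (SE 0.76) and 0.50 (SE 0.77), which rest on the fetus listed at 0. Without 1417F3L they were -0.14 and -0.30. Fibril-associated collagens, which lie on the fibril surface, had log2 fold changes of -0.04 for COL12A1 and -0.19 for COL14A1, and neither was called.

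The 3 basement membrane collagens had positive log2 fold changes, with a median of 0.11, although all 3 were negative with the sow as a block and COL18A1 also with median-of-ratios scaling. Of these, 0 of 3 were called or had an unadjusted limma p under 0.05. COL15A1, which anchors the basement membrane, had 63.5, 104 and 167 FPKM in crossbred fetuses, against 70.7, 99.1 and 172 FPKM in Iberian fetuses (log2 fold change 0.11, SE 0.11). COL4A2 had a log2 fold change of 0.12 in the row used, which lies on the strand of COL4A1, and 0.13 in its other row. Collagen VI chains had log2 fold changes of 0.05 for COL6A1, 0.04 for COL6A2 and 0.12 for COL6A3, and -0.15, -0.22 and -0.06 with the sow as a block. The limma adjusted p of these chains lay between 0.672 and 0.918.

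Elastic fibre and fibronectin genes had a median log2 fold change of -0.13, with 0 of 7 called and 0 at an unadjusted limma p under 0.05. FBLN2 (fibulin 2, a binder of basement membrane and elastic fibres) had 16.5, 26.0 and 39.6 FPKM in crossbred fetuses, against 15.1, 30.3 and 74.8 FPKM in Iberian fetuses. 6 Iberian fetuses lay above every crossbred fetus (log2 fold change -0.33, SE 0.17, limma adjusted p = 0.302). The value was -0.11 without 1404F2L, 1410F5L and 1417F3L, and -0.55 with the sow as a block. ELN (elastin) had a log2 fold change of -0.21, FBLN1 -0.20, FN1 (fibronectin) -0.13 and FBLN5 -0.09. FBN2, a microfibril protein of the fetus, was the 1 gene of this group with a positive value, at 0.16.

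Genes for the processing and crosslinking of collagen all had negative values, with a median log2 fold change of -0.11. Of these, 0 of 4 were called or had an unadjusted limma p under 0.05. PCOLCE, which speeds removal of the collagen propeptide, had -0.28, and the lysyl oxidases LOX, LOXL1 and LOXL2 had -0.11, -0.10 and -0.08. Beside ADAMTS19, MMP2 had a log2 fold change of -0.22, and the inhibitors TIMP2 and TIMP3 had -0.09 and 0.01.

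Comparing littermates gave more negative values but added no calls. In the limma fit that blocks on the sow, 32 of the 38 genes had a negative log2 fold change and the median was -0.23, against 0.01 over all loci. None was called by limma, while 6 had an unadjusted p under 0.05, which is 15.8% of them and 15.8% of all loci. In COL1A2, COL5A2, ELN, DCN, SPARC, PCOLCE and MMP2 the crossbred littermates averaged lower in 5 of 5 sows, and no gene was higher in crossbred littermates in more than 3. The share of all loci lower in 5 of 5 sows was not counted. Several of these genes vary together, as SPARC had r = 0.97 with COL1A2 and MMP2 and 0.96 with PCOLCE. COL1A1 and COL3A1 had positive block values of 1.48 and 1.51, and their differences in sow 1417, 6.68 and 6.33, include the fetus listed at 0. For COL1A2 the differences were -0.78, -0.26, -0.18, -1.18 and -0.07 on the log2 scale for sows 1338, 1340, 1401, 1404 and 1417. Several sows had only 1 fetus of a genotype, so a difference can rest on that animal. In sow 1404 the 1 crossbred fetus was the female 1404F3L, which was the lowest of all fetuses in 10 of the 38 genes.

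Other cell types varied beside these genes. Summed FPKM of the 18 muscle fibre markers ranged from 23278 to 71579 in crossbred fetuses (median 43815), against 19811 to 67505 in Iberian fetuses (median 35551), and all 18 had a positive log2 fold change, with 0 called and 6 at an unadjusted limma p under 0.05. For 15 adipocyte markers the sum ranged from 121 to 434 in crossbred fetuses (median 214), against 130 to 941 in Iberian fetuses (median 227). Of these, 11 had a negative log2 fold change, 0 were called and 9 had an unadjusted limma p under 0.05, and CIDEC had a median under 0.5 FPKM. For 14 fibroblast markers the sum ranged from 462 to 866 in crossbred fetuses (median 658), against 477 to 1895 in Iberian fetuses (median 758), with 0 of 13 tested called and 7 at an unadjusted limma p under 0.05. For 8 tendon markers it ranged from 218 to 1267 in crossbred fetuses (median 437), against 269 to 767 in Iberian fetuses (median 480), with 0 called and 0 at an unadjusted limma p under 0.05. Within litters, the muscle fibre marker mean was higher in crossbred fetuses in 3 of the 5 sows with both genotypes, and the adipocyte marker mean in 2. For the muscle fibre markers the differences were -0.99, 0.10, -0.09, 0.30 and 1.05 on the log2 scale for sows 1338, 1340, 1401, 1404 and 1417. The part of these cell types in the matrix values was not tested in the genotype comparison.

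The association with cell type was instead measured over the 32 fetuses. Each gene was correlated with the mean log2 value of the muscle fibre markers and of the adipocyte markers, none of which belongs to the 38 genes, with 100000 permutations and Benjamini-Hochberg adjustment over 16717 loci. These correlations were computed for 38 genes and 2 marker means.

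With the adipocyte markers, 21 of the 38 genes had a called positive r, where 11.4% of all loci did. None had a called negative r, where 13.4% of all loci did. The median r was 0.47 over the 38 genes and -0.03 over all loci. FBLN2 and LUM came first, both with r = 0.85 (permutation p = 1e-05, the smallest possible, adjusted p = 0.000269), with Spearman rho of 0.71 (permutation p = 4e-05) and 0.61 (permutation p = 0.00024). POSTN followed with r = 0.76 (permutation p = 1e-05, adjusted p = 0.000269) and rho = 0.53 (permutation p = 0.00187). Without the 2 fetuses farthest from the median of the markers (1417F3L and 1404F2L), r was 0.77 for FBLN2, 0.77 for LUM and 0.65 for POSTN.

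Members of most roles were among the 21. They included COL1A2 (r = 0.58), COL5A2 (0.61), FBLN1 (0.60), DCN (0.53), SPARC (0.64), LOXL2 (0.62), PCOLCE (0.69) and MMP2 (0.67), each at an adjusted permutation p under 0.05. Of these, DCN was not called without 1417F3L, and COL1A2, COL5A2 and DCN were not called without the 2 farthest fetuses. The lowest values belonged to COL1A1 (r = -0.34, permutation p = 0.0608, rho = 0.42), COL3A1 (r = -0.32, permutation p = 0.0713, rho = 0.51) and COL15A1 (r = -0.28, permutation p = 0.121, rho = -0.24), none of them called. The first pair rests on the fetus listed at 0, since without 1417F3L r was 0.51 for COL1A1 and 0.78 for COL3A1 and both were called. Without it COL15A1 remained at -0.27.

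The adipocyte association was also counted within each genotype. Among Iberian fetuses alone 18 genes were called with a median r of 0.59, where 1840 of 16596 loci were called positive, and among crossbred fetuses alone 0 were called with a median r of 0.34. Of all loci, 5 were called in crossbred fetuses alone, and the difference between the genotypes was not tested. Leaving out the 2 fetuses farthest from the median gave 12 called genes, with 10 of them among the 21, where 5.61% of all loci were called positive. Values centred and permuted within sow gave 21 called genes, with 18 of them among the 21, where 12.2% of all loci were called positive. The 3 fetuses with the highest adipocyte marker mean were all Iberian females (1417F3L, 1404F2L and 1410F5L), and 1417F3L also had the highest fibroblast and macrophage marker sums and the lowest muscle fibre marker sum, whose part in the association was not tested.

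**Figure D4:**
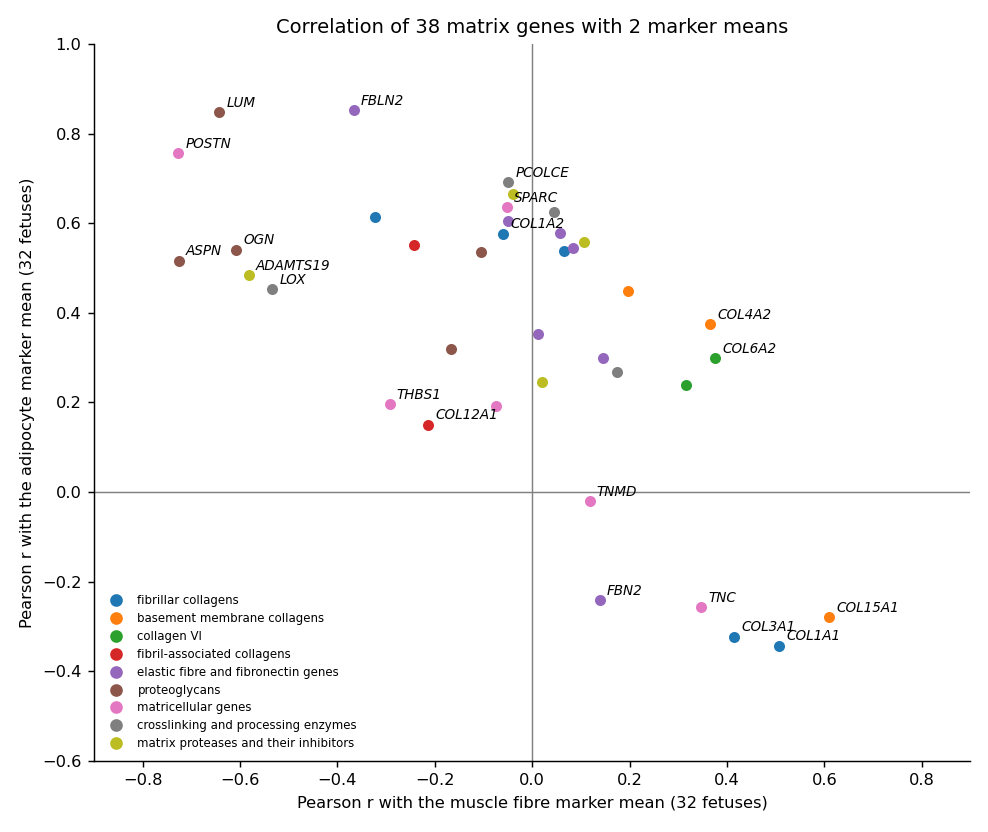
Pearson r over 32 fetuses of each of the 38 genes with the muscle fibre marker mean (horizontal axis) and the adipocyte marker mean (vertical axis), coloured by role. FBLN2 and LUM reach 0.85 with the adipocyte markers, while ASPN and POSTN lie at -0.73 and COL15A1 at 0.61 with the muscle fibre markers.

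With the muscle fibre markers, 2 of the 38 genes had a called positive r, where 20.9% of all loci did, and 6 had a called negative r, where 10.1% of all loci did. The median r was -0.01 over the 38 genes and 0.06 over all loci. COL15A1 was highest, with r = 0.61 (permutation p = 0.0002, adjusted p = 0.00168) and rho = 0.65 (permutation p = 0.00012), and r was 0.62 without the 2 fetuses farthest from the median (1417F3L and 1410F5L). COL1A1 had r = 0.51 (permutation p = 0.00531, adjusted p = 0.0218) but rho = 0.21 (permutation p = 0.246), and r was 0.18 without the fetus listed at 0. COL3A1 followed with r = 0.41 (permutation p = 0.0301, adjusted p = 0.0816) and rho = -0.04 (permutation p = 0.807), and r was -0.33 without that fetus. Of these 2 positive calls, that of COL15A1 does not rest on a listed 0. Without 1417F3L, COL4A2, COL15A1, COL6A2 and COL6A3 had a called positive r, where 25.4% of all loci did. The median r of the 38 genes was then 0.15. Without the 2 farthest fetuses LOXL1 joined them, making 5 genes, where 26.0% of all loci were called positive, and the median r was 0.24.

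The 6 genes with a called negative r were ASPN, POSTN, LUM, OGN, ADAMTS19 and LOX. ASPN had r = -0.73 (permutation p = 1e-05, the smallest possible, adjusted p = 0.000172) and rho = -0.74 (permutation p = 1e-05). POSTN had r = -0.73 (permutation p = 3e-05, adjusted p = 0.00039) and rho = -0.61 (permutation p = 0.00022). LUM had r = -0.64 (permutation p = 0.00013, adjusted p = 0.0012) and rho = -0.42 (permutation p = 0.0192). Without the 2 farthest fetuses r was -0.67 for ASPN, -0.60 for POSTN and -0.43 for LUM, and all 6 genes were still called. All 6 were also among the 21 genes with a called positive r with the adipocyte markers, although ASPN, ADAMTS19 and LOX were not called there without 1417F3L. Without the 2 fetuses farthest from the adipocyte marker median (1417F3L and 1404F2L), OGN was lost as well, and only LUM and POSTN remained of the 6. With values centred and permuted within sow, ASPN, ADAMTS19 and OGN were not called there.

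The muscle association was also counted within each genotype. Among crossbred fetuses alone 8 genes had a called positive r (COL5A1, COL4A2, COL6A2, FBLN5, SPARC, PCOLCE, MMP2 and TIMP2) and ASPN a called negative r, with a median r of 0.44. The 8 genes are 21.1% of the 38, where 20.1% of all loci were called positive and 9.37% negative. Among Iberian fetuses alone 1 gene (COL15A1) had a called positive r and 7 a called negative r, with a median r of -0.34, where 1841 of 16596 loci were called positive and 836 negative (5.04%). SPARC had r = 0.68 in crossbred and -0.39 in Iberian fetuses, and PCOLCE 0.76 in crossbred and -0.38 in Iberian fetuses. The lowest muscle fibre marker means belonged to the Iberian females 1417F3L (-1.28), 1410F5L (-0.91) and 1404F2L (-0.82). They had 5840, 3416 and 3543 FPKM for SPARC (Iberian median 2854) and 640, 369 and 352 FPKM for PCOLCE (Iberian median 275). The negative Iberian r can rest on these animals, and r without them was not computed within the genotype. The difference between genotypes was not tested.

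**Figure D5:**
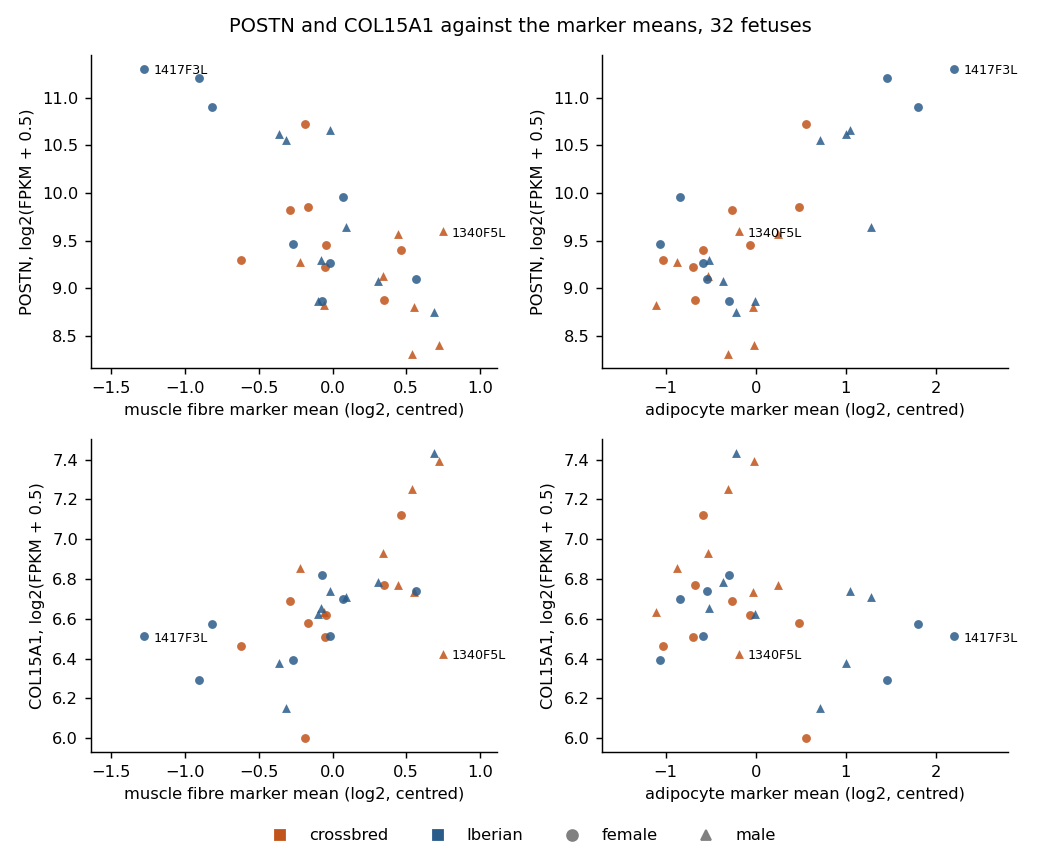
Log2(FPKM + 0.5) of POSTN (top) and COL15A1 (bottom) against the centred log2 mean of the muscle fibre markers (left) and adipocyte markers (right), 1 point per fetus, coloured by genotype with circles for females and triangles for males. Over all 32 fetuses r with the muscle fibre markers is -0.73 for POSTN and 0.61 for COL15A1, and 1417F3L has the highest adipocyte marker mean at 2.21.

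No sex difference was called in these genes. Among crossbred fetuses, females over males gave 0 called of 38 by limma, where 0.0356% of all loci were called higher and 0.0891% lower. At an unadjusted limma p under 0.05 there were 3 genes, POSTN (log2 fold change 0.59), ASPN (0.48) and LUM (0.32), all higher in females with an adjusted p of 0.331, beside 2503 of 16843 loci. In the same comparison all 18 muscle fibre markers had negative log2 fold changes, with a median of -0.46, 0 called by limma and 10 at an unadjusted p under 0.05, and their part was not tested. Among Iberian fetuses 0 were called and 0 had an unadjusted limma p under 0.05, where 0.0244% of all loci were called higher and 0.0914% lower. The median log2 fold change of females over males was -0.06 in crossbred and 0.11 in Iberian fetuses. For the difference of the sex effect, crossbred minus Iberian, 0 were called and 0 had an unadjusted limma p under 0.05, where 0% of 17345 loci were called and 850 had such a p.

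The surrounding pathway was described from gene lists chosen for their roles, again for crossbred over Iberian fetuses. Collagen folding, modification and secretion, which covers prolyl and lysyl hydroxylases and the chaperone SERPINH1, had 0 of 22 tested genes called, 4 at an unadjusted limma p under 0.05 and a median log2 fold change of -0.03. The smallest p in this list belonged to PLOD2, a lysyl hydroxylase, with a log2 fold change of 0.34, and TMEM38B, an endoplasmic reticulum ion channel, with 0.15. Propeptide processing and crosslinking had 0 of 9 called, 1 at an unadjusted limma p under 0.05 and a median of -0.12, led by the procollagen proteases ADAMTS2 (-0.28) and ADAMTS3 (0.27). The synthesis machinery therefore showed no call in either direction.

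Among 19 other collagens, 2 were called higher and 0 lower in crossbred fetuses, where 0.848% of all loci were called higher and 0.507% lower. The log2 fold change was negative in 14 of the 19, with a median of -0.18. An unadjusted limma p under 0.05 was found for 8 of them, where 17.9% of all loci had such a p. COL6A5 and COL6A6 share 1 row and are counted separately. Over the 18 distinct rows the median was -0.12, 13 were negative and 7 had such a p. COL23A1, a transmembrane collagen, averaged 3.67 ± 1.34 FPKM over crossbred fetuses, against 2.09 ± 0.81 FPKM over Iberian fetuses (SD, n = 16 and 16, log2 fold change 0.70, SE 0.16, limma adjusted p = 0.0171). COL24A1, a minor fibrillar collagen, averaged 11.0 ± 3.49 FPKM over crossbred fetuses, against 6.597 ± 2.59 FPKM over Iberian fetuses (log2 fold change 0.72, SE 0.18, limma adjusted p = 0.0341). That row lies on the strand opposite to the RefSeq gene. The other row of COL24A1, on the annotated strand, averaged 4.94 ± 1.68 FPKM over crossbred fetuses, against 4.44 ± 1.41 FPKM over Iberian fetuses (SD, n = 16 and 16, log2 fold change 0.13, limma adjusted p = 0.676), so the call concerns the higher row only. With the sow as a block the adjusted p was 0.166 for COL23A1 and 0.215 for COL24A1, and neither was then called.

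Laminins and other non-collagen basement membrane genes had positive log2 fold changes in 11 of 11 tested genes, where 9420 of 16750 loci were positive. Their median was 0.25, with 0 called and 6 at an unadjusted limma p under 0.05, where 17.9% of all loci had such a p. Values with the sow as a block, which turned the 3 basement membrane collagens negative, are not given for this list. LAMA5 (laminin α5, log2 fold change 0.48) and SPARCL1 (a relative of SPARC, 0.27) had the smallest p, with limma adjusted p of 0.0632 and 0.113. Other proteoglycans and glycoproteins had 0 of 27 called, 4 at an unadjusted limma p under 0.05 and a median of -0.09, with FBN3 at 0.47 and EFEMP1 at -0.94 having the smallest p.

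Among 28 other matrix proteases and inhibitors, 0 were called higher and 1 lower, where 0.848% of all loci were called higher and 0.507% lower. Their median log2 fold change was 0.01, and 6 had an unadjusted limma p under 0.05. The gene called was TIMP4, a metalloprotease inhibitor, at 4.01 ± 1.26 FPKM over crossbred fetuses, against 6.82 ± 2.88 FPKM over Iberian fetuses (SD, n = 16 and 16, log2 fold change -0.66, SE 0.17, limma adjusted p = 0.0447). With the sow as a block its adjusted p was 0.107. Collagen and matrix receptors had 0 of 23 called, 6 at an unadjusted limma p under 0.05 and a median of 0.11, led by the integrin chains ITGA6 (0.36) and ITGA9 (0.33 in the row used, which lies opposite to the RefSeq gene, and 0.41 in its other row). The TGF-beta and CTGF axis, which drives matrix synthesis, had 0 of 21 called, 3 at an unadjusted limma p under 0.05 and a median of 0.07, led by PDGFA (0.17) and WWTR1 (0.13).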

How the data were processed

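RNA-seq libraries from the longissimus dorsi of 32 pig fetuses were analysed. The authors made the FPKM values that were deposited: per the submitters' notes, reads were trimmed with Trim Galore, checked with FastQC, mapped by TopHat2 (2.1.0) running Bowtie2 (2.2.7.0) on the Sscrofa11.1 genome, and quantified by Cufflinks (2.2.1) and Cuffdiff, with bias correction and weighting of multi-mapped reads per the study's methods. In the deposited table, FPKM are given for 30413 loci, and its columns were tied to fetuses by the sample titles, with 0 columns unused. Read counts were not analysed here, and relative depth was estimated by comparing the low end of the FPKM scale between libraries, so small values carry no counting interval.

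Differences were tested on the log2(FPKM + 0.5) scale by limma (3.58.1, R 4.3.3) with moderated variances that follow a trend. Loci entered a fit when 1 of its groups averaged over 0.5 FPKM. Calls needed an adjusted p (Benjamini-Hochberg, all loci) of 0.05 or less and a fold of 1.3 or more, and the interaction had no fold minimum. Correlations used the mean log2 value of 18 muscle fibre and 15 adipocyte markers, 100000 permutations over fetuses and two-sided p, and were called at an adjusted p of at most 0.05. Tables and plots were made in Python 3.11.15 (pandas 2.3.3, numpy 2.4.6, matplotlib 3.10.9), random effects used statmod 1.5.0, and the tests were tested on simulated data. The members and lists were chosen with earlier results of these data known.

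Named in full were the genes called, the 6 with the smallest genotype p, the 5 with the highest and the 1 with the lowest mean, the 3 with the largest positive and negative r with each marker mean, and the 3 with the largest and smallest coefficient of variation. Of each pathway list the genes called, or otherwise the 2 with the smallest p, were named. Of the 38 symbols, 6 had a pair of rows and the row with the higher mean was used. The locus numbers list plus-strand before minus-strand loci, as was checked on 6178 and 5959 loci with a single RefSeq gene, and by this order the rows used for FN1, ADAMTS19 and COL4A2 lie opposite to the annotated gene, as do, among the pathway genes, those for COL24A1 and ITGA9. For FN1 the log2 fold change was -0.13 in both rows. The alternatives tried were the pseudocount, the filter, the scaling, sex, the variance model, the sow as a block or random effect, and leaving out fetuses or sows.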

Additional observations from a re-analysis of the deposited data

Results flagged for a closer look

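Within each genotype and sex, the highest and the lowest of the 8 fetuses were compared with the rest for all 38 genes, and a value was marked when its gap to the nearest fetus was large for the range of the group on the log2(FPKM + 0.5) scale. Chance marks about 1 in 20 groups, and 12 of 152 groups were marked (7.89%). The crossbred male 1340F5L held 9 of these values, always as the highest crossbred male. It had 4072 FPKM for COL3A1 (next fetus 2720), 403 for COL5A2 (237), 761 for COL6A3 (360.0) and 447 for COL12A1 (228). It also had 229 FPKM for COL14A1 (109), 124.9 for FBN2 (67.9), 91.4 for THBS1 (48.7), 173 for THBS2 (67.5) and 163 for TIMP3 (88.1). The crossbred female 1340F9L, from the same sow, had 79.0 FPKM for FBLN1 (next crossbred female 38.5). The Iberian female 1417F3L was listed at 0 FPKM for COL1A1 (next Iberian female 1454) and at 0 FPKM for COL3A1 (2308).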

How the results depend on the processing

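The 1 gene called between genotypes stayed at 1 under the other pseudocounts, filters, median-of-ratios scaling, sex as a covariate, robust variances, the sow as a random effect, sows with both genotypes only, without sow 1340, and in each of the 32 fits that left out a fetus. The count was 0 with the sow as a replicate block, 0 without 1404F2L, 1410F5L and 1417F3L, and 0 with the row on the annotated strand, the last an alternative chosen after seeing the data. Over all loci there were 227 calls, against 48 with the replicate block, 53 without those 3 fetuses and 126 without sow 1340. The sex comparisons had 0 calls under every alternative run, the replicate block included. Beside ADAMTS19, the block ended the calls of COL23A1, COL24A1 and TIMP4. Adipocyte-associated genes numbered 12 without the 2 farthest fetuses and 0 in crossbred fetuses alone, and 18 to 21 under the other settings. Muscle-associated genes numbered 8 to 11, but the genes were not always the same. Of the 9 in crossbred fetuses alone, 8 had a positive r, and only ASPN was among the 8 called over all 32 fetuses. The other settings kept 7 or 8 of those 8. The median r of the 38 genes was 0.44 in crossbred and -0.34 in Iberian fetuses alone.

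Uncalled log2 fold changes turned sign as follows. With the replicate block: COL4A2 -0.10, COL15A1 -0.048, COL18A1 -0.081, COL6A2 -0.22, COL6A3 -0.061, THBS2 -0.14 and TIMP3 -0.11. With the sow as a random effect: COL18A1 -0.036, COL6A2 -0.068, THBS2 -0.044 and TIMP3 -0.039. With median-of-ratios scaling, which moved the median of all loci to 0.00: COL18A1 -0.025, THBS2 -0.0070 and TIMP3 -0.014. In sows with both genotypes: COL18A1 -0.037, COL6A2 -0.12, THBS2 -0.024, TNMD -0.091 and TIMP3 -0.030. Without sow 1340: COL18A1 -0.044, COL6A2 -0.026, THBS2 -0.11, LOXL1 0.049 and TIMP3 -0.15. Without 1404F2L, 1410F5L and 1417F3L: COL1A1 -0.065, COL3A1 -0.17, FBN1 0.026, FBLN5 0.0072, VCAN 0.092, LOX 0.018, LOXL2 0.035 and TIMP2 0.0059. With the listed 0 left out, chosen after seeing the data, COL1A1 was -0.14 and COL3A1 -0.30. Leaving out 1 fetus gave ranges of -0.14 to 0.73 for COL1A1, -0.30 to 0.61 for COL3A1, -0.0278 to 0.0356 for COL18A1, -0.0528 to 0.11 for COL6A2, -0.0696 to 0.00768 for FBN1, -0.0404 to 0.0260 for VCAN, -0.0803 to 0.0821 for THBS2 and -0.0534 to 0.0396 for TIMP3, and 45 of 1216 values had the other sign. Apart from the listed 0, the cause of these changes was not tested. Counts are unknown, so the depth behind low values such as those of ADAMTS19 cannot be given.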
